A study of Mus musculus with 8 samples.

Results

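The immediate early genes Jun, Junb, Fos, Egr1, Klf6, Ier2 and Ier3 were examined together with Myc in mouse liver in which the kinase PERK could be switched on by a drug. Members were all probe sets that name only 1 of these 8 genes in the array annotation, which gave 11 of the 12422 probe sets tested and 8 of the 8251 genes covered. Myc, Jun, Klf6, Ier2 and Ier3 had 1 probe set each, and Junb, Fos and Egr1 had 2 each. Total RNA was measured on 8 Affymetrix MG-U74Av2 oligonucleotide arrays, 2 in each of 4 groups: untreated Atf4+/+, untreated Atf4-/-, AP20187-treated Atf4+/+ and AP20187-treated Atf4-/-. Every mouse, controls included, carried Ttr::Fv2E-PERK from the low-expressing line #58, a transgene under the promoter of the hepatocyte gene Ttr that encodes PERK fused to a domain which AP20187 dimerizes. The transgene had been bred into the Atf4 knockout strain on a mixed FvB/n and Swiss Webster background, and transgenic siblings of both genotypes were compared. The series title calls the untreated mice mock-injected, and the dose of AP20187, the time after it and the ages of the mice are not given in the sources used here, nor is the part of Atf4 that was deleted, so that its probe set may not test the knockout. Whether both arrays of a group stand for different mice is not in the labels, so that a p-value covers only the spread of these samples, which may be technical.

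Immediate early genes are transcribed within minutes of a stimulus without new protein synthesis, through factors such as SRF, its Elk partners, CREB and ATF proteins that kinases modify. Most of their products are transcription factors, and in liver Jun, Fos, Egr1 and Myc are known for their rapid appearance after partial hepatectomy, injury or stress. Active PERK phosphorylates the translation factor eIF2 alpha, which lowers protein synthesis in general and raises translation of the transcription factor Atf4. The design therefore asked which genes respond to this pathway in liver and which of the responses differ without Atf4.

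The deposited value of a probe set on an array was a linear ratio, with a median over the 8 arrays of at least 0.99 in 85.8% of the table, so that levels cannot be compared between genes. For the same reason the liver label could not be checked against the presence of hepatocyte markers. Tests used log2(ratio + 0.1), which understates the change of low values, in 1 limma fit of 4 group means to all probe sets. The check gene Atf4 had ratios of 4.17 and 5.75 in treated Atf4+/+ and 0.25 and 0.33 in treated Atf4-/- livers. Without drug it had 2.36 and 0.30 under the label Atf4+/+ and 0.29 and 1.67 under the label Atf4-/-, so that replicate 2 of each untreated group stood on the side opposite to its label. Untreated Atf4-/- replicate 1 carries Atf4-/- in its source name and Atf4+/+ in its description. Treated Atf4+/+ replicate 2 stood apart, with an SD of all ratios of 0.721 against 0.397 to 0.480 on the other 7 arrays and ratios of at least 2 in 4.44% of probe sets against 1.83% to 3.20%. The log2 quotient of its deposited 5 prime and 3 prime Actb control ratios, a relative sign of RNA quality, was -0.64 against -0.19 or more elsewhere. That of Gapdh was -0.061 against -0.050 or more, which is hardly apart. As quotients of ratios these values compare arrays and do not give the 5 prime to 3 prime signal of an array itself. The main counts and some of the effects are therefore also given without these arrays. The average of the AP20187 effects in both genotypes sets all 4 treated arrays against all 4 untreated ones, and it leads each account. With 2 arrays in each untreated group, it uses their genotype labels only in its estimate of spread. Grouped by the descriptions, the untreated groups are unequal and the estimate itself changes. The averaged log2 change of Junb probe set 102362_i_at then goes from 1.71 to 2.26.

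With AP20187 the ratios of Myc, Jun, Klf6 and, by 1 of its 2 probe sets, Egr1 in all 4 treated arrays lay above those of all 4 untreated arrays. Such a separation was seen in 4.19% of all probe sets tested, and in 4 of the 11 member probe sets. Leaving arrays out cannot undo such a separation and can only add to it. Its share of all probe sets was 8.73% without the 2 untreated arrays that go against their labels. It was 11.3% without those and treated Atf4+/+ replicate 2. In both cases Junb was added by 1 of its 2 probe sets, 102363_r_at, with 0.91 against 0.90 on the nearest arrays. None of the 11 member probe sets passed limma's test after Benjamini-Hochberg adjustment in any of the 6 comparisons. In the averaged effect 5 were higher at an unadjusted limma p under 0.05, against 6.16% of all probe sets: Myc, Jun, Klf6, Egr1 98579_at and Junb 102362_i_at. That count was 3 without the 2 untreated arrays (5.23% of all), 2 when treated Atf4+/+ replicate 2 was left out as well (5.14%) and 4 without that treated array alone (4.56%). The median log2 change over the 11 was 0.81, beside -0.043 over all 12422 probe sets, and 8 of 11 lay above 0 where 45% of all did. None was lower at an unadjusted p under 0.05 (5.15% of all) or lower without overlap (3.78%). Within Atf4+/+ livers the median was 0.80 beside -0.057. At an unadjusted limma p under 0.05, 3 were higher (4.78% of all) and none lower (4.31%). That count of higher ones fell when both untreated arrays and treated replicate 2 were left out, as did the share of all probe sets. Within Atf4-/- livers the median was 0.80 beside -0.019 and 2 were higher (4.27% of all). In these comparisons 7 and 9 of the 11 lay above 0, where 45.1% and 48.1% of all probe sets did. The count of 2 in Atf4-/- livers became 1 without untreated Atf4-/- replicate 1 (4.59% of all), treated Atf4-/- replicate 1 (2.91%) or treated Atf4-/- replicate 2 (2.82%), and 5 when either of the treated Atf4+/+ arrays was left out (4.37%). In a whole liver, fewer cells of a type and less RNA per cell cannot be told apart.

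Among all probe sets of the table, 5 passed the test in the averaged effect (0.0403% of those tested), and 1 in Atf4+/+ livers (0.00805%). They name B3galt1, Igfbp1, Atf3 and Ifrd1, while the fifth names no gene in the annotation, and B3galt1 was the 1 in Atf4+/+ livers. The averaged count was 2 without treated Atf4+/+ replicate 1 and 0 without any 1 of the other 7 arrays, and the Atf4+/+ count was 0 without any 1 of the 8. No probe set passed in the Atf4-/- livers, in the difference of the AP20187 effects or in either genotype comparison, where between 2.53% and 4.27% of probe sets were higher, and between 2.56% and 3.16% lower, at an unadjusted limma p under 0.05.

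**Figure D1:**
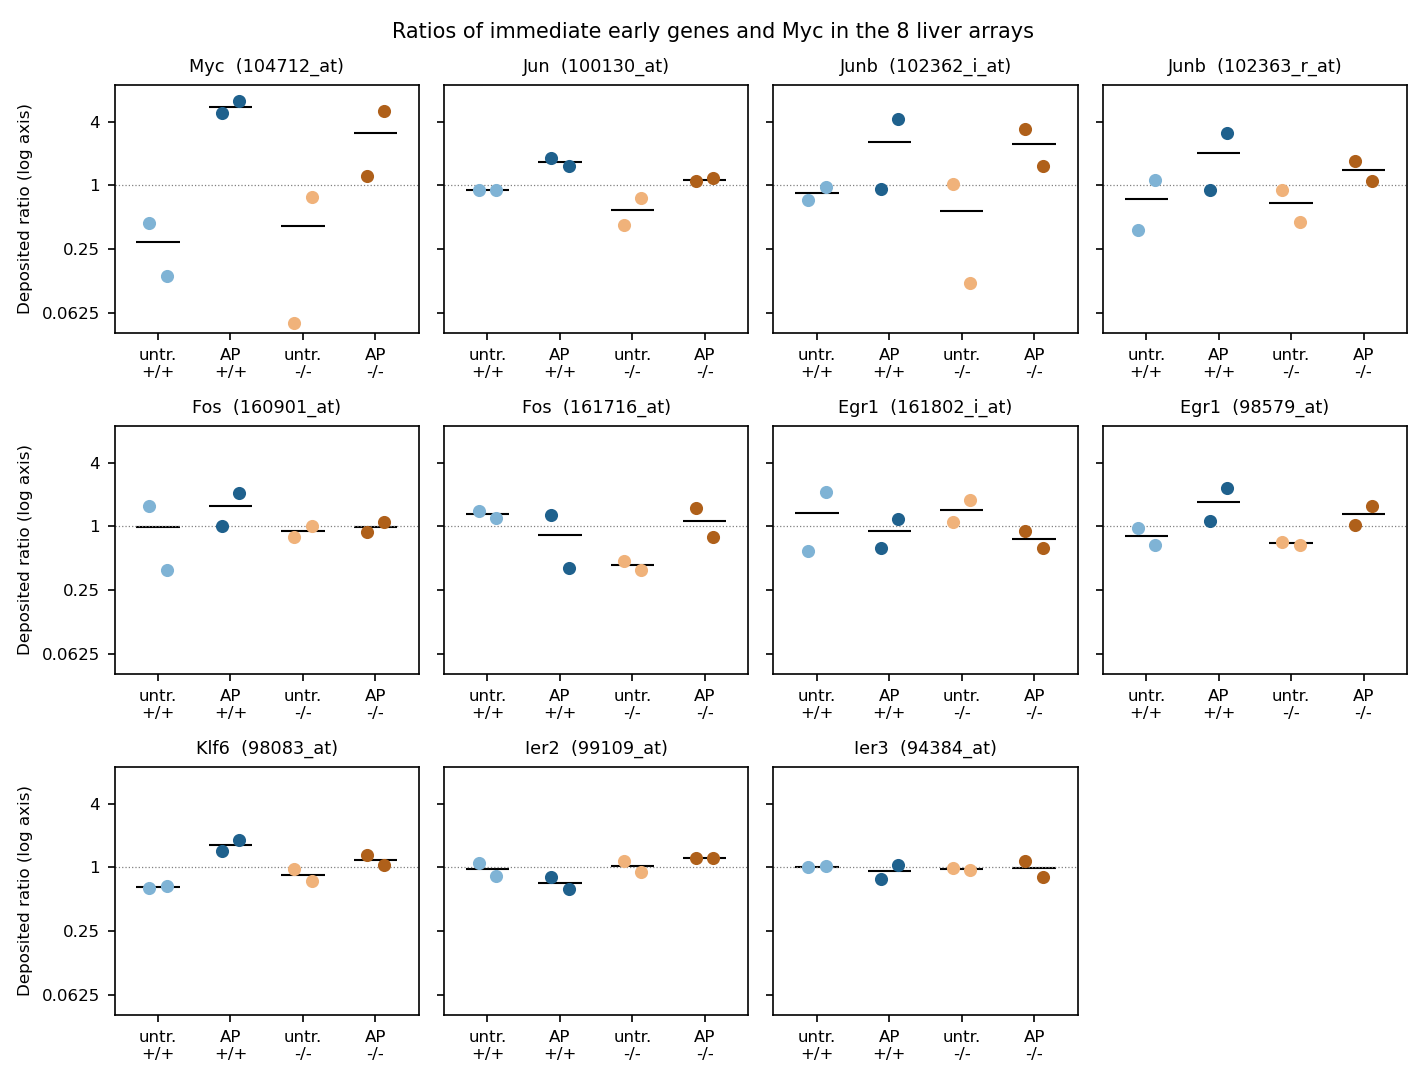
Each panel shows the deposited ratios of 1 member probe set on a log axis, with a point per array, 2 arrays per group and a line at the group mean (untr., untreated; AP, treated with AP20187; +/+ and -/-, Atf4 genotype as labelled). Myc spans 0.05 to 6.30 and its treated arrays all lie above its untreated ones, while the arrays of Ier3 stay between 0.77 and 1.15.

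Myc encodes the transcription factor that binds E-boxes with its partner Max and drives genes of growth and ribosome production. Its probe set (104712_at; gene at GRCm38.p6 chromosome 15, 61985341 to 61990361) read 0.44 and 0.14 in untreated Atf4+/+ and 0.05 and 0.77 in untreated Atf4-/- livers. With AP20187 it had 4.81 and 6.30 in Atf4+/+ and 1.23 and 5.04 in Atf4-/- livers. All 4 treated arrays were above all 4 untreated ones, with treated Atf4-/- replicate 1 the nearest to them. Group means were 0.29 ± 0.212, 0.41 ± 0.509, 5.56 ± 1.05 and 3.14 ± 2.69 in that order (SD, n = 2 each), and the mean of all treated arrays was 12.4-fold that of all untreated arrays. The averaged log2 change was 3.41 ± 0.69 (SE, 95% confidence interval 1.74 to 5.08, limma adjusted p = 0.221), and only 5 of the 12422 probe sets had a larger one. Its SD within groups, however, was larger than that of 97.9% of all probe sets. The quotient of mean ratios was 19.2 in Atf4+/+ and 7.65 in Atf4-/- livers. On the log2 scale the change was 3.96 ± 0.98 in Atf4+/+ (limma adjusted p = 0.364) and 2.86 ± 0.98 in Atf4-/- livers (limma adjusted p = 0.626). The latter moved to 1.59 without untreated Atf4-/- replicate 1 and to 1.88 without treated Atf4-/- replicate 2. The difference of the 2 effects, Atf4-/- minus Atf4+/+, was -1.11 ± 1.38 (95% confidence interval -4.44 to 2.23, limma adjusted p = 0.945). Its sign was positive without untreated Atf4-/- replicate 2 (0.16) and without both untreated arrays that go against their labels (0.75), and it was -2.79 ± 1.20 with the groups taken from the descriptions, so that a dependence of the Myc response on Atf4 was not resolved in either direction.

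Jun, Junb and Fos encode subunits of the dimeric transcription factor AP-1. Jun (100130_at, GRCm38.p6 chromosome 4, 95049036 to 95052222) had 0.91 on both untreated Atf4+/+ arrays and 0.42 and 0.76 in untreated Atf4-/- livers. With AP20187 its ratios were 1.81 and 1.53 in Atf4+/+ and 1.09 and 1.17 in Atf4-/- livers. Treated and untreated arrays did not overlap, and within either treatment no Atf4-/- array reached the Atf4+/+ arrays. The averaged log2 change was 0.84 ± 0.20 (SE, 95% confidence interval 0.35 to 1.33, limma adjusted p = 0.267), with 0.80 ± 0.29 in Atf4+/+ and 0.88 ± 0.29 in Atf4-/- livers. Their difference was 0.074 ± 0.40 (95% confidence interval -0.90 to 1.05, limma adjusted p = 0.986), and its sign turned without untreated Atf4-/- replicate 1 (-0.29) and without treated Atf4+/+ replicate 2 (-0.041). Atf4-/- minus Atf4+/+ was -0.59 ± 0.29 without and -0.52 ± 0.29 with AP20187 (limma adjusted p = 0.947 and 0.952). Grouped by its description, untreated Atf4-/- replicate 1 joins Atf4+/+ and the untreated genotype difference became 0.087.

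Junb, a Jun relative that often counters Jun in growth control, had 2 probe sets (GRCm38.p6 chromosome 8, 84976909 to 84978748). Probe set 102362_i_at, of a kind that Affymetrix marks as incomplete, had 0.73 and 0.97 in untreated Atf4+/+ and 1.03 and 0.12 in untreated Atf4-/- livers. With AP20187 it had 0.92 and 4.25 in Atf4+/+ and 3.42 and 1.54 in Atf4-/- livers. Probe set 102363_r_at, designed under relaxed rules, had 0.38 and 1.12, then 0.90 and 0.45, in the untreated groups and 0.91 and 3.13, then 1.70 and 1.09, in the treated groups, in the same order. In Atf4+/+ livers the single array treated replicate 2 was high in both, and treated replicate 1 lay among the untreated arrays. The 2 probe sets lay on the same side of their own means on 7 of 8 arrays. Averaged log2 changes were 1.71 ± 0.68 and 1.11 ± 0.49 (SE, limma adjusted p = 0.432 and 0.465). In Atf4+/+ livers they were 1.16 ± 0.96 and 1.24 ± 0.70, which without treated Atf4+/+ replicate 2 became 0.11 and 0.40. In Atf4-/- livers they were 2.27 ± 0.96 and 0.98 ± 0.70, and without untreated Atf4-/- replicate 2 they became 1.09 and 0.55.

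Fos (GRCm38.p6 chromosome 12, 85473890 to 85477274), the classical partner of Jun, also had 2 probe sets, and these did not follow each other: they lay on the same side of their own means on 4 of 8 arrays. Probe set 160901_at had 1.56 and 0.39 in untreated Atf4+/+, 0.80 and 1.0 in untreated Atf4-/-, 1.01 and 2.08 in treated Atf4+/+ and 0.88 and 1.09 in treated Atf4-/- livers. Probe set 161716_at had 1.41 and 1.21, 0.47 and 0.39, 1.27 and 0.40, and 1.48 and 0.79 in the same order. In neither did treated and untreated arrays separate. Averaged log2 changes were 0.45 ± 0.43 and 0.20 ± 0.36 (SE, 95% confidence intervals -0.58 to 1.48 and -0.67 to 1.07, limma adjusted p = 0.713 and 0.857). The first took the opposite sign (-0.16) without the 3 doubted arrays, and the second did so without treated Atf4+/+ replicate 1 (-0.16) and, by a much smaller amount, without treated Atf4-/- replicate 1. For 161716_at the effects had opposite signs in the genotypes, -0.76 ± 0.51 in Atf4+/+ and 1.17 ± 0.51 in Atf4-/- livers, and their difference of 1.93 ± 0.72 was the only one of the 11 with an unadjusted limma p under 0.05, in the direction that 2.73% of all probe sets showed (limma adjusted p = 0.906). Over the 11 the difference of effects lay above 0 in 5, beside 53.4% of all probe sets.

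Egr1 and Klf6 encode zinc finger transcription factors, the first a classical target of SRF and Elk factors and the second a Krüppel-like factor known from injured liver. Egr1 probe set 98579_at had ratios of 0.96 and 0.67 in untreated Atf4+/+, 0.71 and 0.67 in untreated Atf4-/-, 1.12 and 2.29 in treated Atf4+/+ and 1.04 and 1.57 in treated Atf4-/- livers. The treated arrays lay above the untreated ones, with a gap of only 0.96 to 1.04 between the nearest arrays. Probe set 161802_i_at, marked as incomplete, ran differently, with 0.59 and 2.09, 1.09 and 1.79, 0.63 and 1.18, and 0.91 and 0.62 in that order. Only 2 of 8 arrays lay on the same side of the mean in both. The averaged log2 change was 0.86 ± 0.27 for 98579_at (SE, 95% confidence interval 0.20 to 1.52, limma adjusted p = 0.368) and -0.58 ± 0.42 for 161802_i_at (limma adjusted p = 0.631). Without the 2 untreated arrays that go against their labels the latter was 0.0028, so that the direction given for Egr1 rests on 98579_at. Within genotypes the log2 change of 98579_at was 0.92 ± 0.39 in Atf4+/+ and 0.80 ± 0.39 in Atf4-/- livers. The Atf4+/+ change was 0.43 without treated Atf4+/+ replicate 2. It was 0.20 when the 2 untreated arrays that go against their labels were also left out, and the averaged change was then 0.49.

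Klf6 (98083_at, GRCm38.p6 chromosome 13, 5861489 to 5870393) had 0.64 and 0.66 in untreated Atf4+/+ and 0.96 and 0.75 in untreated Atf4-/- livers. With AP20187 its ratios were 1.43 and 1.81 in Atf4+/+ and 1.32 and 1.05 in Atf4-/- livers. Replicates lay close together, treated and untreated arrays did not overlap, and the Atf4-/- arrays of each treatment lay between the 2 Atf4+/+ groups. The mean ratio with AP20187 was 2.49-fold that without it in Atf4+/+ and 1.39-fold in Atf4-/- livers. The averaged log2 change was 0.81 ± 0.17 (SE, 95% confidence interval 0.40 to 1.22, limma adjusted p = 0.227). It was 1.19 ± 0.24 in Atf4+/+ (limma adjusted p = 0.266) and 0.43 ± 0.24 in Atf4-/- livers (limma adjusted p = 0.726). The difference of the 2 effects was -0.76 ± 0.34 (95% confidence interval -1.59 to 0.066, limma adjusted p = 0.931). It was negative without any 1 of the 8 arrays, from -0.92 to -0.60, and -0.43 ± 0.42 with the groups taken from the descriptions, while the interval of the fit on all arrays includes 0.

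Ier2 and Ier3 are immediate early response genes, the first for a small nuclear protein and the second for a stress-induced regulator of cell survival. Ier2 (99109_at, GRCm38.p6 chromosome 8, 84661331 to 84662852) had 1.09 and 0.82 in untreated Atf4+/+ and 1.15 and 0.91 in untreated Atf4-/- livers. With AP20187 it had 0.81 and 0.62 in Atf4+/+ and 1.23 and 1.22 in Atf4-/- livers. Treated arrays were thus below the untreated ones in Atf4+/+, as in 21.3% of all probe sets, and above them in Atf4-/- livers, as in 20.1%. The log2 changes were -0.37 ± 0.25 and 0.24 ± 0.25 (SE, limma adjusted p = 0.696 and 0.835) and their difference was 0.61 ± 0.35 (limma adjusted p = 0.944). Ier3 (94384_at, GRCm38.p6 chromosome 17, 35821713 to 35822911) had 1.01 and 1.02, 0.99 and 0.95, 0.77 and 1.06, and 1.15 and 0.81 in the order untreated Atf4+/+, untreated Atf4-/-, treated Atf4+/+ and treated Atf4-/-. The treated arrays lay on both sides of the untreated ones. Averaged log2 changes were -0.066 ± 0.18 for Ier2 (95% confidence interval -0.49 to 0.36) and -0.077 ± 0.18 for Ier3 (-0.51 to 0.36), intervals that lie below the change fitted for Jun but hold smaller ones.

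**Figure D2:**
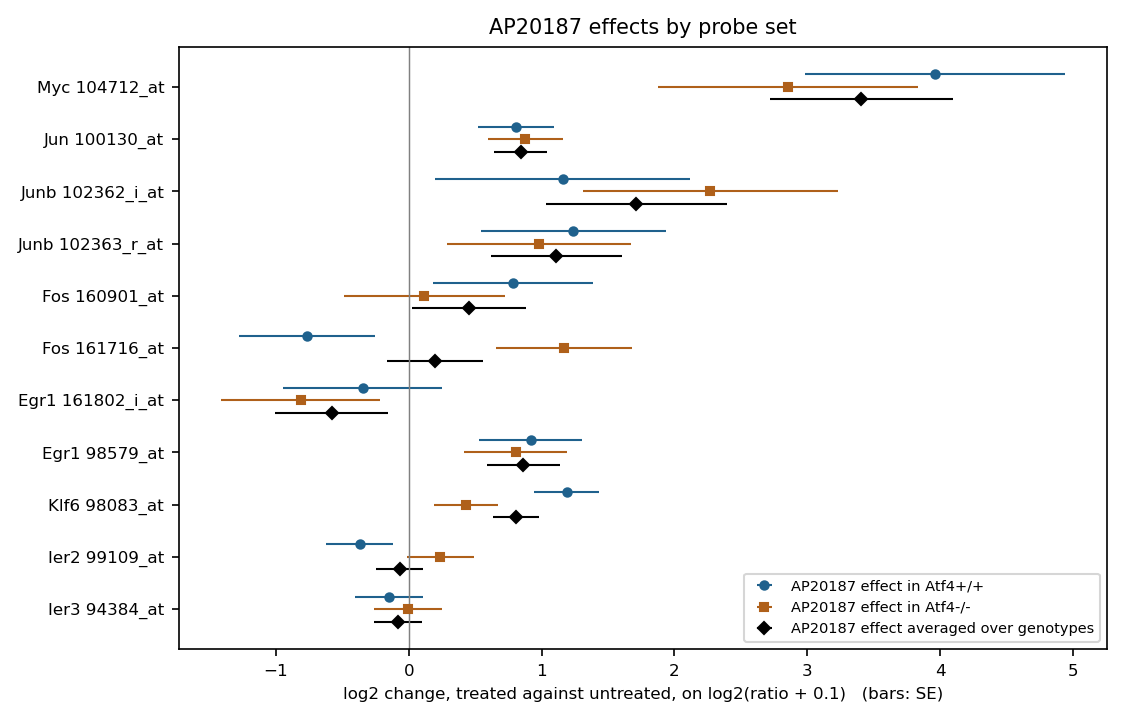
The log2 change with AP20187 is plotted for each member probe set on the log2(ratio + 0.1) scale, in Atf4+/+ (circles), in Atf4-/- (squares) and averaged over the genotypes (diamonds), with bars of 1 SE from the limma fit. Myc lies farthest to the right with the widest bars, Jun, Klf6 and Egr1 98579_at lie between 0.43 and 1.19 with short bars, and the averaged values of the 2 Egr1 probe sets lie on opposite sides of 0.

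Within genotypes the groups hold 2 arrays each, and separation is common. In Atf4+/+ livers 4 member probe sets had both treated arrays above both untreated ones, beside 16.7% of all probe sets: Myc, Jun, Klf6 and Egr1 98579_at. That count was 7 without untreated Atf4+/+ replicate 2 (30.7% of all) and 8 without treated Atf4+/+ replicate 1 (34% of all), and 7 without all 3 doubted arrays (43.5% of all). In Atf4-/- livers 8 probe sets of 7 genes did so, beside 20.1% of all, namely those of Jun, Junb, Myc, Klf6 and Ier2, Egr1 98579_at and Fos 161716_at. Egr1 161802_i_at was lower without overlap there, as were 22.3% of all probe sets. Without untreated Atf4-/- replicate 2 the count of 8 became 9 (33.9% of all).

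The genotypes were compared at each treatment, using the same arrays as the AP20187 effects. Atf4-/- minus Atf4+/+ lay above 0 for 5 of the 11 without drug, where 49.3% of all probe sets did, and for 4 with drug, where 54.8% did. Without drug Klf6 was higher in both Atf4-/- arrays than in both Atf4+/+ arrays, in the direction that 15.5% of all probe sets showed, and Jun, Ier3 and Fos 161716_at were lower, as in 16.4%. With drug Ier2 was higher without overlap (19.2% of all) and Jun and Klf6 were lower (15.3%). The 1 member probe set past an unadjusted limma p under 0.05 without drug was Fos 161716_at at -1.41 ± 0.51 (SE, limma adjusted p = 0.868), where 2.56% of all probe sets were lower and 2.76% higher. With drug it was Ier2 at 0.71 ± 0.25 (limma adjusted p = 0.872), where 2.53% of all probe sets were higher and 2.78% lower. Myc differed by -1.10 ± 0.98 with drug (SE), where treated Atf4-/- replicate 1 lay below both Atf4+/+ arrays and replicate 2 between them. It was -0.13 without treated Atf4-/- replicate 1, -2.08 without treated Atf4-/- replicate 2 and -0.50 with quantile normalization. The genotype differences without drug rest on arrays of which 2 go against their labels.

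The array on which a member was highest was often the same. Treated Atf4+/+ replicate 2 held the highest ratio of 6 of the 11 member probe sets, where it held that of 17.0% of all probe sets, and 5 of its member ratios were at least 2. Treated Atf4-/- replicate 1 was the highest for 3, and untreated Atf4+/+ replicate 2 and treated Atf4+/+ replicate 1 for 1 each. The mean over the 8 genes of the centred log2 ratios, 1 probe set a gene, was 0.42 and 0.64 on the treated Atf4+/+ arrays and 0.33 and 0.38 on the treated Atf4-/- arrays. On the untreated arrays it was -0.28, -0.38, -0.65 and -0.47. Treated and untreated arrays thus separated in this mean. Setting aside treated Atf4+/+ replicate 2, the highest array, could not have changed that. The part of RNA quality in the values of that array was not tested.

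**Figure D3:**
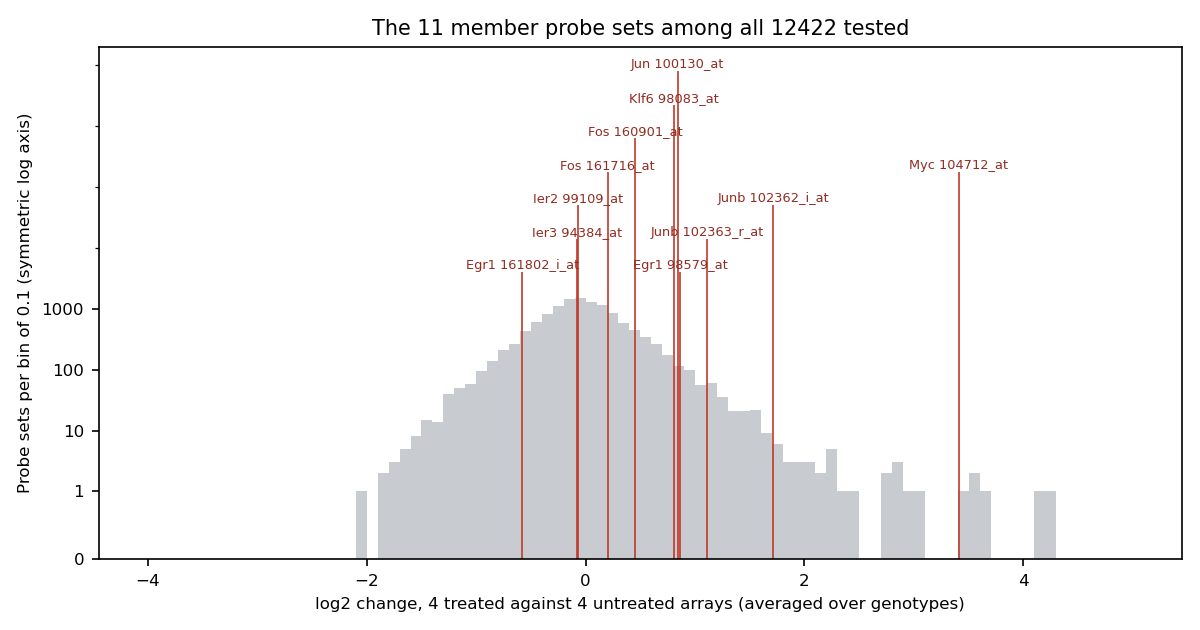
Grey bars count all 12422 probe sets by their log2 change averaged over genotypes, in bins of 0.1 on a symmetric log axis, and red lines mark the 11 member probe sets, the height of a line carrying no value. Myc stands at 3.41 in the far right tail, Jun, Klf6, Egr1 98579_at and both Junb probe sets lie between 0.81 and 1.71, and Ier2 and Ier3 lie next to the centre.

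The start regions of Jun and Klf6 are shown because these 2 members separated treated from untreated arrays with the smallest spread within groups among the 4 that did. Windows of 250 bases before and 50 bases after the annotated start, from RefSeq on GRCm38.p6, were given for 5 of the 8 members: Jun, Junb, Fos, Klf6 and Ier3. They are printed 5′ to 3′ on the strand of the gene, with motif matches in capitals.
Jun, chr4:95052173-95052472, minus strand: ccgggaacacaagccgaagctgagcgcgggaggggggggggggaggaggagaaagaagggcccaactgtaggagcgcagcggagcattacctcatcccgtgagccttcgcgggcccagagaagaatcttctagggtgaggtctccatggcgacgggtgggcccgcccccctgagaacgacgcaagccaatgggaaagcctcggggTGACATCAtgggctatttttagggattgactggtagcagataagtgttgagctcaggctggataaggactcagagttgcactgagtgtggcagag
Klf6, chr13:5861239-5861538, plus strand: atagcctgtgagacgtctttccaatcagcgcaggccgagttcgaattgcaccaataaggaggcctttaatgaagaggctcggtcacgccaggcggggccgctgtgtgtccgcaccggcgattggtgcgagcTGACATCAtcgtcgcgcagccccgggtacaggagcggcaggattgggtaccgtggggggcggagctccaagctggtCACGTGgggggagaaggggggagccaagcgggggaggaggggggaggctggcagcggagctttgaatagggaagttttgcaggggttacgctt
The capitals mark TGACATCA, the variant AP-1 element known from the Jun promoter where Jun and Atf2 bind, and in Klf6 also CACGTG, the E-box bound by Myc with Max. TGACATCA starts 45 bases upstream of the Jun start and 119 bases upstream of the Klf6 start, and CACGTG starts 43 bases upstream in Klf6. Both strands were searched, and among all 32851 windows TGACATCA was found in 3.62% and CACGTG in 7.15%. TGACATCA was added to the search after the windows had been read, and its matches are a description. The other motifs were the CArG box of SRF (1.63% of all windows), the cAMP response element TGACGTCA (1.79%), the AP-1 site TGANTCA (7.81%), the core TGATGNAA of sites shared by C/EBP and Atf4 (3.97%) and the Egr site GCGGGGGCG (2.91%). None of these was found in the 5 windows. Sites more than 250 bases upstream, and the members without a window, are not covered by this. Windows of Jun and Klf6 hold 60.0% and 63.0% G or C, beside a median of 52.7%.

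Further immediate early genes were read from a list of 39, of which 32 had a probe set of their own. In the averaged effect 20 of the 32 lay above 0 with a median of 0.094, beside -0.043 over all probe sets. Atf3, read by probe set 104156_r_at and the only one past the test, encodes a stress-induced repressor of the ATF and CREB family, and rose by 4.15 ± 0.33 on the log2 scale (SE, limma adjusted p = 0.0370). Its ratios were 0.28 and 0.15 in untreated Atf4+/+, 0.14 and 0.19 in untreated Atf4-/-, 7.37 and 16.59 in treated Atf4+/+ and 1.72 and 2.82 in treated Atf4-/- livers. Its other probe sets, 104155_f_at and 161645_r_at, were at 3.68 ± 0.37 and -0.27 ± 0.15 and did not pass (limma adjusted p = 0.0569 and 0.545). The call was lost without treated Atf4+/+ replicate 2 (3.86 ± 0.28, limma adjusted p = 0.117) and without the 2 untreated arrays that go against their labels (4.07 ± 0.44, limma adjusted p = 0.413). The others with the smallest p did not pass: Sgk1, a kinase induced by serum and glucocorticoid, at 1.58 ± 0.25, the antiproliferative gene Btg2 at 0.87 ± 0.22, and Jund, the third Jun gene, at 0.54 ± 0.17 (limma adjusted p = 0.147, 0.293 and 0.363). Of the 32, 5 were higher and 1 lower at an unadjusted limma p under 0.05, beside 6.16% and 5.15% of all probe sets. Both counts fell without the 2 untreated arrays that go against their labels.

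Myc was also set beside its partners and beside genes it is known to drive. Of 17 partners and antagonists 12 were measured, with a median of 0.15 and 7 above 0, none higher and 1 lower at an unadjusted limma p under 0.05, beside 6.16% and 5.15% of all probe sets. Neither direction had any without the 2 untreated arrays that go against their labels, without treated Atf4+/+ replicate 2 or without all 3, where the median was 0.10, 0.041 and -0.015. The lower one was Mxd4, a Max partner that opposes Myc, at -0.39 ± 0.16, and Max itself was at 0.36 ± 0.19 (SE, limma adjusted p = 0.432 and 0.527). Mnt, another antagonist, was at 0.26 ± 0.17 and Mxd1 at -0.35 ± 0.23. Of 30 target genes 28 were measured. They had a median of 0.31 beside -0.043 over all probe sets, 20 lay above 0, and 11 were higher and 1 lower at an unadjusted limma p under 0.05, beside 6.16% and 5.15% of all. None passed the test (smallest limma adjusted p = 0.166). The count of higher genes fell without the 2 untreated arrays that go against their labels, without treated Atf4+/+ replicate 2 and without all 3. The share of all probe sets fell as well in each, and the medians of the target genes were 0.31, 0.27 and 0.27.

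Among the target genes with the smallest p, Nop56, a core protein of box C/D small nucleolar ribonucleoproteins that modify ribosomal RNA, had 0.70 and 0.44, then 0.45 and 0.61, in untreated Atf4+/+ and Atf4-/- livers and 1.67 and 4.61, then 1.30 and 1.80, in the treated ones. Nop58, its partner in the same particle, had 0.71 and 0.65, 0.58 and 0.58, 1.87 and 4.05, and 1.29 and 1.63 in the same order. In both, every treated array lay above every untreated one, as in 4.19% of all probe sets, and treated Atf4+/+ replicate 2 was the highest by far. Averaged log2 changes were 1.76 ± 0.35 for Nop56 and 1.53 ± 0.26 for Nop58, 0.76 ± 0.18 for the nucleolar chaperone Npm1 and 1.20 ± 0.32 for Cad, an enzyme of pyrimidine synthesis (SE, limma adjusted p = 0.218, 0.166, 0.261 and 0.298). The 1 gene lower at an unadjusted p under 0.05 was the cyclin Ccnd2 at -1.53 ± 0.41 (limma adjusted p = 0.307), named here after its value was seen.

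Kinases and factors that carry signals to immediate early promoters lay on both sides of 0. Of 28 genes 19 were measured, with a median of 0.0032, 11 above 0, and 2 higher and 3 lower at an unadjusted limma p under 0.05, beside 6.16% and 5.15% of all probe sets. Without the 2 untreated arrays that go against their labels 7 lay above 0, both counts fell and the median was -0.070. Without all 3 doubted arrays the median was -0.076. Crem, a cAMP-responsive factor, was at 0.59 ± 0.16, Elk3, an SRF partner, at -0.63 ± 0.20, and the MAP kinase kinases Map2k3 and Map2k6 at -0.53 ± 0.18 and -0.68 ± 0.27 (SE, limma adjusted p from 0.300 to 0.432). The effect on Map2k6 was fitted at 0.17 ± 0.38 in Atf4+/+ and -1.52 ± 0.38 in Atf4-/- livers, and the difference of -1.69 ± 0.54 did not pass (limma adjusted p = 0.901).

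**Figure D4:**
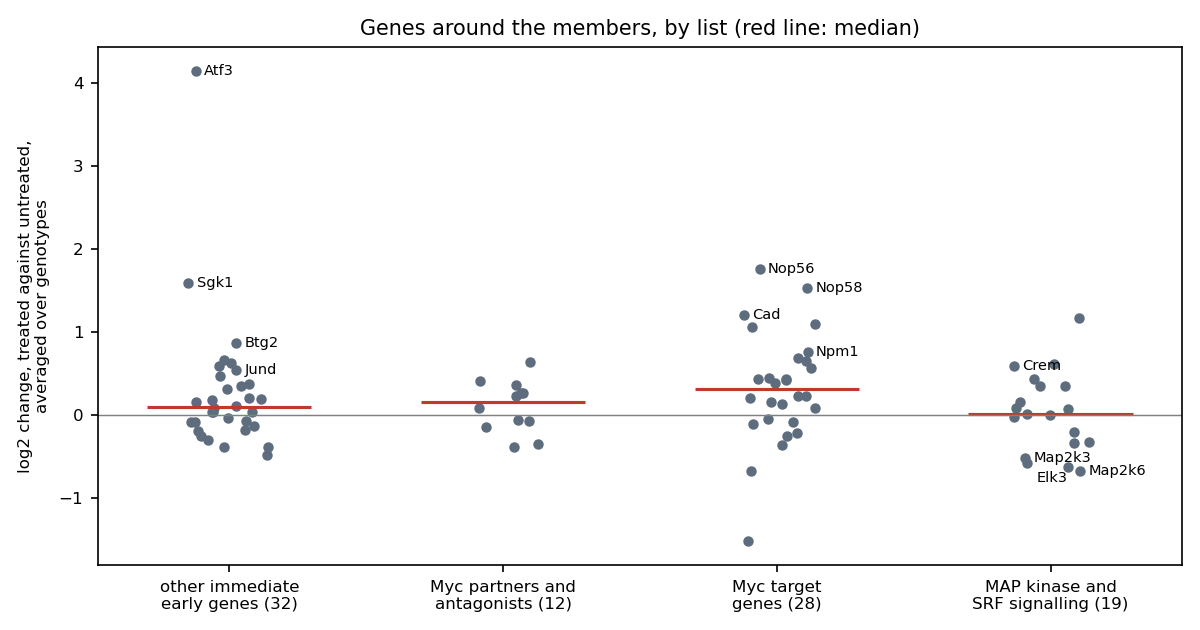
Each point is a measured gene of 1 of 4 lists, placed by its log2 change with AP20187 averaged over genotypes, and red lines mark list medians of 0.094, 0.15, 0.31 and 0.0032 from left to right. Atf3 at 4.15 is the only point past the test, and Nop56, Nop58 and Cad lead the Myc target genes.

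Markers of liver cell types were read beside these results, since several of the members are also expressed in cells other than hepatocytes. Averaged medians were -0.13 over 7 hepatocyte, 0.058 over 8 macrophage and Kupffer cell, -0.24 over 7 T and B cell, -0.012 over 6 neutrophil, -0.24 over 6 endothelial, 0.021 over 6 stellate cell and fibroblast, 0.14 over 3 bile duct and 0.015 over 3 erythroid markers. None of these markers passed the test. Of the 6 endothelial markers 1 lay above 0, where 45% of all probe sets did. Their mean log2(ratio + 0.1), a scale on which a ratio of 1 lies above 0, was -0.14 to 0.53 on untreated arrays. On treated arrays it was -0.26 to 0.24. On the same scale hepatocyte markers had means of 0.00095 to 0.31 on untreated and -0.23 to 0.21 on treated arrays, the lowest on treated Atf4+/+ replicate 2. Ttr, whose promoter drives the transgene, was at -0.57 ± 0.20 (SE, limma adjusted p = 0.385). In a table of ratios no marker can be read as present or at 0, and the part of cell composition in the members' values was not tested.

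Genes whose ratios ran most like those of a member over the 8 arrays were found by the root mean square difference of centred log2 values. For Myc these were Snhg5, a host gene of small nucleolar RNAs, at 0.593, Atf3 by 104155_f_at at 0.754 and the growth arrest gene Gadd45a at 0.769, where the root mean square of Myc itself was 1.95. Snhg5 had 0.54 and 0.30, 0.05 and 0.43, 3.44 and 6.07, and 1.46 and 2.02 in the order of groups used above. For Jun they were Uqcc3, Ube2d3 and Xpot at 0.178 to 0.218, and for Klf6 they were Ftsj3, Mcrs1 and Myd88 at 0.126 to 0.160. For Egr1 98579_at they were Epb41l4aos, Chd1 and Rcc2 at 0.144 to 0.177. Junb 102363_r_at ran most like the metallothionein gene Mt2, at 0.219, followed by Egfr and Kif9. Mt2 shared with Junb the high values of treated Atf4+/+ replicate 2 (3.33) and treated Atf4-/- replicate 1 (2.65) and a low one on untreated Atf4+/+ replicate 1 (0.34). Fos 161716_at ran most like Tle4, Mmp9 and Zfp574 at 0.236 to 0.274, Ier2 like Rasgrp2, Mea1 and Ap3s1 at 0.112 to 0.127, and Ier3 like Trim11, Lgals9 and Sprr2c-ps at 0.0742 to 0.0804. The points of such a comparison share their arrays, and no test was attached to it.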

How the data were processed

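The authors deposited 1 table of linear ratios in steps of 0.01 for 12488 probe sets. In 10714 of them (85.8%) the median over the 8 arrays was at least 0.99, and in 1774 (14.2%) it was lower. The summarising, scaling and dividing of signals were not stated in the sources used, and signal over background is unknown. Groups came from source names and descriptions. After 66 control probe sets were left out, log2(ratio + 0.1) was fitted in limma 3.58.1 (R 4.3.3) with 4 group means, default eBayes moderation (4 residual and 2.37 prior df) and Benjamini-Hochberg adjustment over 12422 probe sets in each of 6 comparisons at a threshold of 0.05. The fit was tested on simulated data. The members and lists were chosen with earlier results of these data known. Of several probe sets of a gene, the one read for lists was chosen by row median (0.99 or more), then by a name without a suffix letter, then by the smallest SD within groups. Genes outside the members were named by a rule: in each list up to 4 with the smallest p of the averaged effect, and the 3 nearest to each member, with sex-linked genes, clone names and predicted genes left out. The alternatives were other pseudocounts, normalizations, filters, moderation, array weights, thresholds, groupings of doubted arrays and leaving out each array. Motifs were searched and figures drawn with Python 3.11.15, pandas 2.3.3 and matplotlib 3.10.9.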

Additional observations from a re-analysis of the deposited data

Results flagged for a closer look

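In 22 sets of 4 arrays, the treated or the untreated arrays of each member probe set, the highest or lowest array was compared with the rest. In 2 of them the gap to the nearest array exceeded Dixon's limit for 4 values, where chance gives about 1 in 20. Myc had a ratio of 1.23 on treated Atf4-/- replicate 1, below 4.81, 5.04 and 6.30 on the other treated arrays, a gap of 0.831 of the range on the log2(ratio + 0.1) scale used for the comparison and of 0.706, under the limit, on the linear ratios. Egr1 98579_at had 0.96 on untreated Atf4+/+ replicate 1, above 0.67, 0.67 and 0.71 on the other untreated arrays, a gap of 0.842 of the range on the log2 scale and of 0.862 on the linear ratios.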

How the results depend on the processing

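No member probe set passed the test under any alternative at a threshold of 0.05 or 0.10, and the smallest adjusted limma p of a reported member result was 0.129. Of 44 member results 31 kept their sign under all alternatives, and 31 of 847 values changed sign. Myc averaged over genotypes ranged from 2.77 to 4.04 with 1 array left out and from 2.91 to 3.75 otherwise. With 1 array left out, Fos 160901_at ranged from -0.094 to 1.67 in Atf4+/+ and from -0.027 to 0.26 in Atf4-/- livers and averaged from 0.012 to 0.89, Egr1 161802_i_at from -1.18 to 0.49 in Atf4+/+, Ier3 from -0.36 to 0.057 in Atf4+/+, -0.23 to 0.22 in Atf4-/- and -0.19 to 0.037 averaged, Ier2 averaged from -0.16 to 0.027, Fos 161716_at averaged from -0.16 to 0.56, and the difference of effects of Jun from -0.29 to 0.44 and of Myc from -2.37 to 0.16. Quantile normalization gave 0.0065 for Ier2 averaged. Grouping by description gave -0.027 for Fos 160901_at and 0.023 for Ier3 in Atf4-/- livers, -0.61 for the difference of effects of Jun and 0.087 for its untreated genotype difference. Without both untreated arrays that go against their labels, Fos 160901_at was -0.094 and Egr1 161802_i_at 0.49 in Atf4+/+ livers, Egr1 161802_i_at averaged 0.0028 and the difference for Myc 0.75. Without those and treated Atf4+/+ replicate 2, an alternative chosen after seeing the data, they were -0.58, 0.08, -0.20 and 0.94, and Fos 160901_at averaged -0.16. The causes were not tested.

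Probe sets past the test in Atf4+/+ livers numbered 1, and 2 with quantile normalization, 8 with row medians of at least 0.99 only, 17 grouped by description, 15 at a threshold of 0.10, and 0 without any 1 array, without both untreated arrays and without all 3. In the averaged effect 5 became 12, 10, 12, 3, 21 and 8 with quantile normalization, the row median filter, trend and robust moderation, array weights, a threshold of 0.10 and 2 groups of 4, 0 without both untreated arrays or all 3, and 0 to 2 without 1 array. The difference of effects had 0, and 2 with the row median filter and 2 at 0.10, and Atf4-/- livers had 0, and 1 at 0.10. Of all probe sets 4.27% were higher at an unadjusted limma p under 0.05 in Atf4-/- livers. That share rose to 5.18% with quantile normalization and to 5.25% with array weights. In the main fit it was 4.78% in Atf4+/+ livers and 6.16% averaged. Member probe sets higher at an unadjusted p under 0.05 in Atf4-/- livers numbered 2, and 4 with quantile normalization, 4 with array weights, 1 grouped by description and 1 to 5 without 1 array. In Atf4+/+ livers 3 became 1 without the 3 doubted arrays, and averaged 5 became 3 without both untreated arrays and 2 without all 3, and 4 to 6 without 1 array. Member probe sets without overlap in Atf4+/+ livers numbered 4, and 7 without both untreated arrays (30.7% of all probe sets), 7 without all 3 (43.5%) and 4 to 8 without 1 array (16.7% to 34%). No paired analysis was possible because the labels carry no replicate numbers, and those used here follow accession order. Where leaving out an array left 1 in a group, that array was assumed to vary like the other groups. With 2 arrays a group the number of arrays limits the precision: the median SE of a contrast was 0.32.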
